A study of Mus musculus with 441 samples.

Results

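The cells described here are CD4 T cells of mouse pancreatic islets in which messenger RNA of Il10 was detected: 21 of the 61 cells annotated as activated CD4 T cells in the HIP tetramer sort, which held 184 of the 441 cells in the study. They were chosen by the Il10 value itself, at 1 TPM or more (transcripts per 1000000, the share of each transcript in a cell's total), and are set against the other 40 cells of that class, all of which had Il10 at 0. Cells were single-cell sorted from collagenase-digested islets by their binding of a tetramer, which joins MHC molecules loaded with 1 peptide so that T cells with a fitting receptor take it up, and were profiled with the full-length SMART-Seq2 method. The labels give a HIP and an Ins sort without spelling out the names, and they call the cells specific for beta cells. The labels name no strain, genotype, age or treatment of the mice. The labels tie no cell to an animal, so each sort counts as 1 sample, no test between sets of cells was possible, and every value below describes these cells alone.

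Interleukin 10 restrains antigen-presenting cells and effector T cells. Among CD4 T cells it is made by Foxp3-positive regulatory T cells, by effector cells late in a response, and by type 1 regulatory (Tr1) cells, which lack Foxp3 and are commonly recognised by the inhibitory receptor LAG-3 together with the integrin CD49b. In cultured cells, interleukin 27 drives this Tr1 state through the transcription factors c-Maf and AhR, and interleukin 21, made by the same cells, sustains it. The comparison asked whether the Il10-detected cells, none of which had Foxp3 detected, carried more of the Tr1-associated transcripts than the cells beside them.

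Il10 (chromosome 1, 131019845 to 131024974, plus strand of the mouse build GRCm38) ranged widely among the cells that had it. The lowest of the 21 values was 1.42 TPM, the next 29.6, the median 796.6 and the highest 4161 TPM. Of the 21 cells, 9 lay at 1000 TPM or more, and 5 lay under 100. No cell had a value above 0 and under 1 TPM, so the cell at 1.42 TPM was the only one near the threshold. These values chose the cells and are no finding.

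The cells carry consecutive numbers in the labels, and the HIP sort fell into separate runs of 96 numbers, called blocks here. Whether a block was a plate, a day or an animal is not given. Block 1 held 12 Il10-detected cells of 27 (44.4%, exact Clopper-Pearson 95% interval 25.5 to 64.7) and block 3 held 9 of 34 (26.5%, 12.9 to 44.4). Il10 was also higher per cell in block 1, with a median of 2140 TPM against 275 TPM in block 3, although the ranges overlapped from 29.6 to 2842 TPM. These and all later intervals cover counting error only, and the pairs of values in parentheses after a difference or a list's median are those of block 1 and block 3, the only repeat of the contrast within this class.

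Outside the activated class, Il10 was listed at 0 in all 111 T follicular helper cells of the HIP sort, which allows a share of up to 2.70%, and in its 9 dividing cells, which allows up to 33.3%. It was detected in 2 of the 3 regulatory T cells of the HIP sort, at 1.89 and 55.9 TPM. In the Ins sort it was detected in 52 of 115 regulatory T cells (45.2%, 35.9 to 54.8), with a median of 548 TPM where detected, and in 5 of 25 activated cells (20.0%, 6.83 to 40.7). Il10 was also detected there in 10 of 35 dividing cells (28.6%), 2 of 61 follicular helper cells (3.28%) and 1 of 21 B cells (4.76%). The classes were annotated by the authors from the same expression values, so these shares are a description. The HIP follicular helper cells were sorted with the same tetramer, but as another class they give no background share of Il10 for the activated cells.

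**Figure D1:**
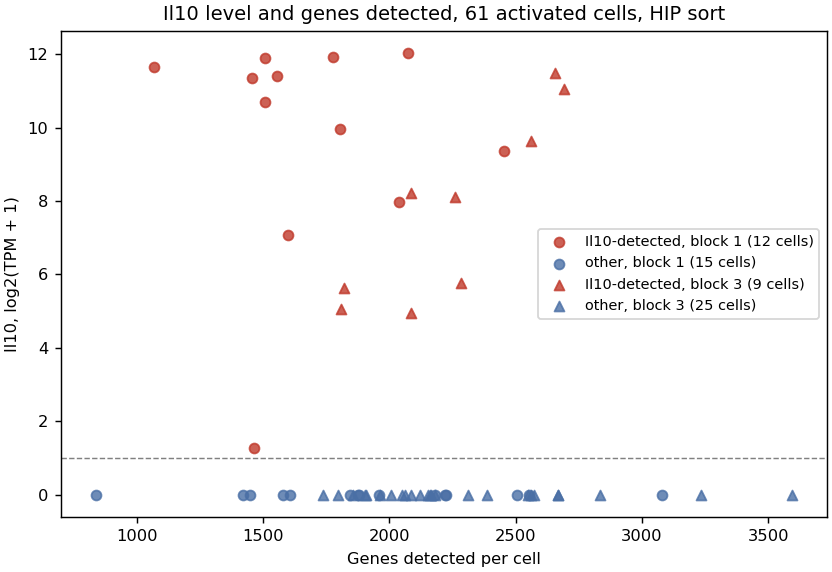
Each point is 1 of the 61 activated cells of the HIP sort, with the number of genes detected on the x axis and Il10 as log2(TPM + 1) on the y axis, coloured by set and shaped by block, and a dashed line at 1 TPM. The 21 Il10-detected cells spread from 1.42 to 4161 TPM, the 40 other cells lie at 0, and both sets cover much the same range of genes detected.

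The Il10-detected cells had T cell transcripts and no Foxp3. Cd4 was detected in 20 of 21 Il10-detected and 36 of 40 other cells, and each of the 14 T cell identity genes measured was detected in both sets. Foxp3, the defining factor of regulatory T cells, was listed at 0 in all 61 cells, which allows up to 14.3% of the Il10-detected and 7.5% of the other cells. Markers of other cells were mostly at 0 or low. Cd8a stayed under 1 TPM in every cell, but Cd8b1, the gene of the other CD8 chain, was detected in 6 of 21 Il10-detected and 16 of 40 other cells, at means of 0.87 and 14.7 TPM, a difference of -0.36 (0.18 and -0.90). The B cell genes Cd79a, Cd79b and Ms4a1 were at 0, as were Lyz2 and C1qb of myeloid cells. The summed level of the 9 myeloid markers, most of it Cst3, ran from 0 to 4757 TPM with a median of 1092 in the Il10-detected cells and from 0 to 4690 with a median of 1003 in the others. Pancreatic acinar transcripts had a median of 0 in both sets, with highest sums of 4408 and 988 TPM, and endocrine transcripts a median of 0 with highest sums of 2145 and 4291 TPM. These sums overlapped between the sets, and their part in the differences below was not tested.

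Il10-detected cells had somewhat fewer genes detected, though not in both blocks. The number ran from 1071 through a median of 1823 to 2692 in the Il10-detected cells, with a mean of 1932 ± 444.4 (SD over 21 cells), and from 839 through 2138 to 3593 in the others, with a mean of 2169 ± 511.7 (SD over 40 cells). Each SD here is a spread between cells, not a replicate error. The medians were 1578 against 1882 in block 1 and 2261 against 2161 in block 3, so the order turned. TPM keeps no read depth, so the depth per cell is unknown and the gene number is its only stand-in. Transcripts can escape capture in single cells: Gapdh was at 0 in 2 of 21 Il10-detected and 1 of 40 other cells, so some of the 40 may have carried Il10 that was not captured.

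The surface receptors associated with Tr1 cells were abundant in the Il10-detected cells, and nearly as abundant in the activated cells without Il10. Lag3 and Tigit, both inhibitory receptors, were detected in almost every cell of either set, and Ctla4 had the largest difference upward. Of the 13 listed receptor genes measured, 9 reached the detection filter, which asks for 25% of cells in one set or the other, and entered the comparison. Differences are of mean log2(TPM + 1), Il10-detected minus other, a scale that understates the change of low genes. Of the 9, 4 were higher and 5 lower, with a median difference of -0.08 (-0.19 and -0.41), beside -0.23 (-0.21 and -0.09) over all 2918 genes compared, 61.8% of which were lower. After adjustment for genes detected and block, the medians were 0.20 for the receptors and -0.03 for all genes. One gene in each direction passed the size used for all genes, a difference of 2 or more with 1 sign in both blocks, which 1.41% of all genes passed upward and 3.46% downward: Ctla4 (1 of 9) and Pdcd1 (1 of 9). Itga2, the gene of CD49b, was not analysed here, so the usual pair of Tr1 surface markers could not be scored.

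Lag3, whose product binds MHC class II and restrains the T cell, was detected in 19 of 21 Il10-detected cells (90.5%, 69.6 to 98.8) and 39 of 40 others (97.5%, 86.8 to 99.9). Its level had a median of 3968 TPM (0 to 8934) beside Il10 and 3525 TPM without it, and the difference was -0.33 (-0.19 in block 1, -0.57 in block 3). Tigit, which competes for ligands of the activating receptor CD226, was detected in all 21 and in 97.5% of the others, at 5256 ± 3360 TPM and 4467 ± 3211 TPM, a difference of 0.21 (0.33 and 0.39). The 2 sets overlapped over most of their ranges for both genes. Lag3 and Tigit together were detected in 90.5% of Il10-detected and 95.0% of other cells, so this pair did not separate the sets.

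Ctla4, the receptor that takes CD80 and CD86 from antigen-presenting cells, was the receptor that differed most. It was detected in 17 of 21 Il10-detected cells (81.0%, 58.1 to 94.6) and 22 of 40 others (55.0%, 38.5 to 70.7). Its level ran from 0 through a median of 495 to 8086 TPM in the former and from 0 through 24.0 to 2478 TPM in the latter. Cells with and without Il10 thus overlapped, and the intervals of the shares did too. The difference was 2.86, with 2.09 in block 1 (8 of 12 cells against 7 of 15) and 4.20 in block 3 (9 of 9 against 15 of 25), and it was 3.46 after adjustment for genes detected and block. Where detected, the median level was 693 TPM beside Il10 and 528 TPM without it, a smaller gap than between the shares.

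Pdcd1, the gene of PD-1, was less often detected beside Il10, in 47.6% (25.7 to 70.2) against 70.0% (53.5 to 83.4) of cells, and its difference was -2.08 (-1.63 and -2.18 in the blocks). Havcr2, the gene of TIM-3, was detected in 14.3% against 30.0%, with a difference of -1.59 (-2.13 and -1.20). Both are inhibitory receptors of chronically stimulated T cells. Il27ra, the receptor chain for interleukin 27, had the opposite direction: it was detected in 61.9% (38.4 to 81.9) of Il10-detected and 47.5% (31.5 to 63.9) of other cells, a difference of 1.73 that was 1.67 in block 1 and 2.65 in block 3. The intervals of each of these 3 genes overlapped between the sets.

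The remaining receptors had no common direction. Icos, a costimulatory receptor, differed by -0.08 and turned from -1.55 in block 1 to 1.88 in block 3, and Entpd1, the gene of the ectonucleotidase CD39, by 0.70, turning from 2.56 to -1.07. Tnfrsf18, the gene of GITR, was detected in 71.4% against 75.0% of cells. Nt5e, the gene of CD73, was detected in 19.0% and 20.0%, Cd226 in 4.76% and 5.00%, and Cd244 in none of the 61. Counted per cell, 4 to 10 of the 13 receptors were detected in Il10-detected cells (median 6) and 3 to 10 in the others (median 7). The means were 6.29 and 6.23, and the medians per 1000 genes detected were 3.29 and 2.92, so the order depended on the measure.

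**Figure D2:**
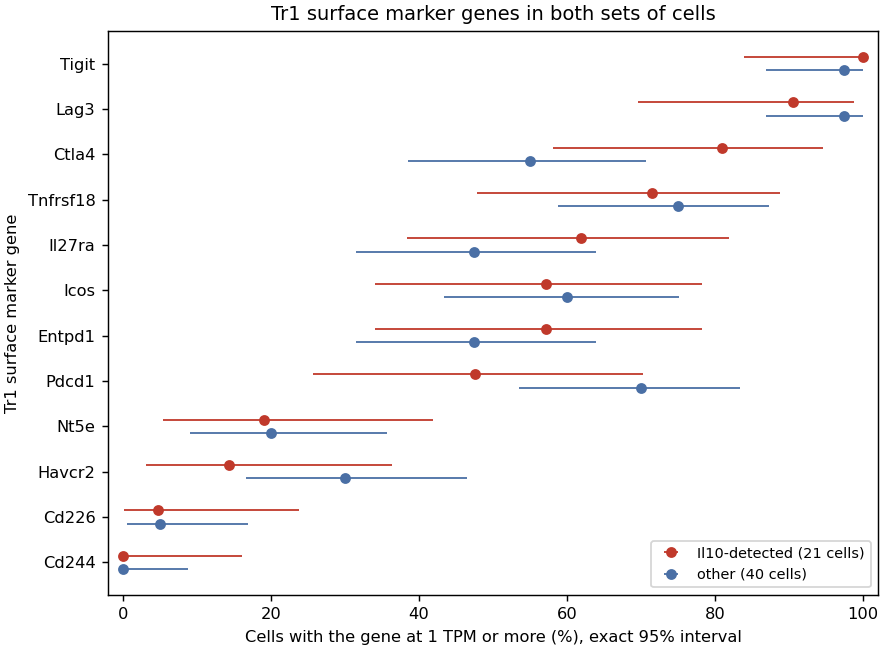
For 12 Tr1-associated receptor genes on the y axis, the x axis gives the percentage of cells with 1 TPM or more in Il10-detected and other cells, and bars are exact 95% intervals. Lag3 and Tigit lie above 90% in both sets, Ctla4 at 81.0% against 55.0%, Pdcd1 at 47.6% against 70.0%, and the 2 intervals overlap for every gene shown.

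The transcription factors that drive Il10 in T cells were present in both sets, in a larger share of Il10-detected cells for several of them, but mostly in 1 block only. Of 16 listed regulators compared, 8 were higher and 8 lower, with a median difference of 0.24 that was -1.01 in block 1 and 1.10 in block 3, and 0.54 after adjustment. Junb alone of the 16 passed the size, on the higher side, where 1.41% of all genes did. Maf, the gene of c-Maf, was detected in 66.7% (43.0 to 85.4) against 52.5% (36.1 to 68.5) of cells, and its difference of 1.21 came from block 3 (2.57) and was -0.02 in block 1. Batf, an AP-1 factor that opens T cell effector loci, showed the same contrast between blocks, at -1.63 and 3.53. Prdm1, the gene of Blimp-1, was detected in 47.6% against 37.5%, with differences of 2.01 and 0.09.

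Other factors linked to Tr1 cells were rare. Ahr was detected in 4 of 21 Il10-detected and 3 of 40 other cells, a difference of 0.83 (0.68 and 1.33). Tbx21, the gene of T-bet, was detected in 6 of 21 and 4 of 40 cells, with a difference of 1.37 that was 0.26 in block 1 and 2.72 in block 3. Eomes was detected in 0 of 21 and 2 of 40 cells, and Irf4 in 28.6% and 27.5%. The intervals of all 4 shares overlapped between the sets.

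Junb, an AP-1 subunit induced on stimulation, was detected in 90.5% (69.6 to 98.8) of Il10-detected and 72.5% (56.1 to 85.4) of other cells, at 2470 ± 2567 and 1386 ± 1796 TPM, a difference of 2.57 (3.07 and 1.81 in the blocks). It also belongs to the genes that respond to tissue digestion and cell handling. That list of 9 had 8 genes higher and a median of 1.28, with 2.14 in block 1 and -0.04 in block 3. Hspa8, a heat shock chaperone, passed the size beside Junb at 2.24 (2.17 and 2.32), where 1.41% of all genes passed upward. The part of handling in the Junb difference was not tested.

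Among cytokines, Il21 went with Il10 a little more often and Ifng a little less. Il21 was detected in 12 of 21 Il10-detected cells (57.1%, 34.0 to 78.2) and 16 of 40 others (40.0%, 24.9 to 56.7), at 132 ± 196 and 90.0 ± 175 TPM, a difference of 1.22 (1.96 and 0.72). Ifng, the type 1 effector cytokine often made together with interleukin 10, was detected in 3 of 21 (14.3%, 3.05 to 36.3) and 12 of 40 (30.0%, 16.6 to 46.5), a difference of -1.23 (-0.53 and -1.86). Only 1 of the 21 cells had Il10, Il21 and Ifng together, and 7 had neither Il21 nor Ifng. The intervals of both genes overlapped. Over the cytokine list, 3 genes of 9 were higher and 6 lower (66.7%, beside 61.8% of all genes). Its median of -0.64 turned between the blocks (0.27 and -0.54) and was -0.33 after adjustment.

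Cells with several of the Tr1-linked transcripts at once existed in both sets. Lag3, Tigit and Ctla4 were detected together in 15 of 21 Il10-detected cells (71.4%) and 21 of 40 others (52.5%). With Maf added, the counts were 11 of 21 (52.4%, 29.8 to 74.3) and 10 of 40 (25.0%, 12.7 to 41.2), and Maf with Il21 was detected in 10 of 21 (47.6%) and 8 of 40 (20.0%). These combinations were chosen after the single genes had been seen, and they support nothing on their own. The intervals of each combination overlapped between the sets.

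**Figure D3:**
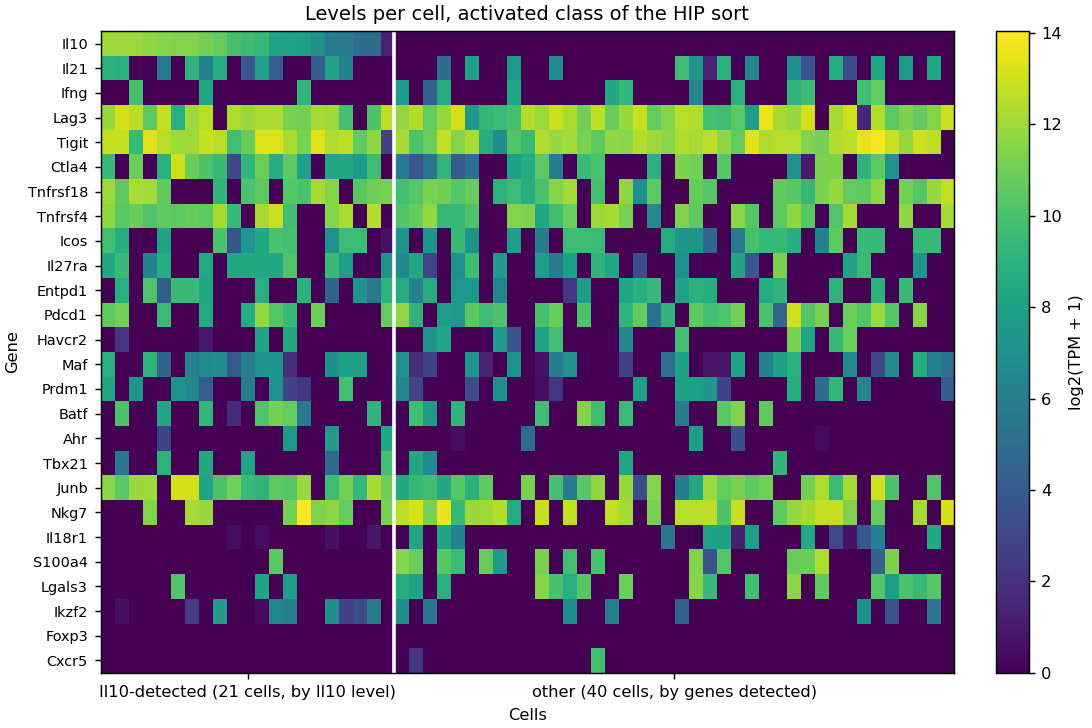
Each column is 1 cell and each row 1 gene, with colour giving log2(TPM + 1); the 21 Il10-detected cells stand left of the white line in order of Il10 and the 40 others right of it in order of genes detected. Lag3 and Tigit fill nearly every column on both sides, Il18r1 is under 1 TPM in all 21 columns on the left, and Foxp3 is at 0 throughout.

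Of 10 genes of the type 1 effector programme, 1 was higher beside Il10 and 9 were lower, where 61.8% of all genes were lower. The higher gene was Tbx21, the gene of T-bet and a central factor of that programme, whose values are given above. Their median was -0.64 (-1.11 and -0.88) and -0.34 after adjustment, beside -0.23 and -0.03 for all genes. Nkg7 alone of the 10 passed the size, downward, where 3.46% of all genes did. Nkg7, a membrane protein of cytotoxic granules, was detected in 42.9% (21.8 to 66.0) of Il10-detected and 70.0% (53.5 to 83.4) of other cells, a difference of -3.34 (-2.07 and -4.09), and the cells overlapped in level. Il18r1, the receptor chain for interleukin 18, was under 1 TPM in all 21 Il10-detected cells, the highest value being 0.78 TPM, which allows a share of up to 14.3%. It was detected in 13 of 40 other cells (32.5%, 18.6 to 49.1), and the exact upper bound for the Il10-detected cells was 16.1%. The gene was singled out after its values were seen, so the gap between these intervals is no support. Most of the 13 were in block 3, with 11 of 25 cells against 2 of 15 in block 1.

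Among cytotoxic effector genes, which some Tr1 cells use to kill antigen-presenting cells, Gzmb, Prf1 and Gzma were rare or undetected. Gzmb was detected in 1 of 21 Il10-detected and 0 of 40 other cells, and Prf1 and Gzma in none of the 61. Gzmk, another granzyme gene, was detected in 11 of 21 (52.4%) against 37.5%, a difference of 1.44 (0.93 and 3.22). Ccl5, a chemokine of effector cells, was detected in 19.0% and 25.0%, with block values of 1.60 and -1.78.

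The defining genes of the other CD4 fates, follicular helper and regulatory cells, were at or near 0 in both sets, while other genes of those fates were present. Cxcr5, the follicle homing receptor, and Bcl6 were detected in none of the 21 and in 2 and 3 of the 40. Of 9 follicular helper genes compared, 4 were higher and 5 lower, with a median of -0.08 (-0.32 and 0.72) that was 0.44 after adjustment. Pdcd1 alone of the 9 passed the size, downward, where 3.46% of all genes did. Cd200 was also lower, detected in 33.3% against 62.5% of cells (-1.55). Il21, a product of follicular helper cells too, is on that list, as is Tox, a factor of chronically stimulated cells, detected in 52.4% against 37.5% (1.25). Of 7 genes on the regulatory T cell list that were compared, 4 were higher and 3 lower, with a median of 0.73 (0.18 and 1.40, and 1.12 after adjustment). The 4 higher genes were Ctla4, Tnfrsf4, Ikzf2 and Capg (0.73), and Tnfrsf18, detected in 71.4% against 75.0% of cells, was among the 3 lower. Ctla4 was the only 1 to pass the size upward, and 1 gene of the list, not named here, passed it downward. Of all genes, 1.41% passed upward and 3.46% downward. Ikzf2, the gene of Helios, was detected in 38.1% (18.1 to 61.6) of Il10-detected and 20.0% of other cells, beside 59.1% of Ins regulatory T cells, and its difference of 0.88 was -0.03 in block 1 and 2.25 in block 3. Tnfrsf4, the gene of OX40, was detected in 76.2% against 65.0%, a difference of 1.53 (1.44 and 1.80), beside 87.8% of the Ins regulatory cells. Il2ra, the gene of CD25, was detected in 1 of 21 and 2 of 40 cells but in 34.8% of the Ins regulatory cells. Il21 had the opposite order, at 57.1% of the Il10-detected cells and 2.61% of Ins regulatory cells, which came from another sort.

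Among costimulatory receptors, Cd27 was detected in 52.4% against 32.5% of cells, with a difference of 2.10 (2.16 and 1.94). Over that list, 4 of 10 genes were higher and the median was -0.10 (-0.35 and -0.24). The anergy list had 5 of 10 higher and a median of 0.20 (0.50 and 0.24, and 0.64 after adjustment), with Folr4, a surface marker of regulatory and anergic T cells, at 1.17 (2.72 and 0.07) and the phosphatase Ubash3a at -2.55 (-3.63 and -1.16). Genes induced by the antigen receptor had 5 of 8 higher and a median of 0.32 (-0.03 and 0.33, and 0.79 after adjustment), with Nr4a1 detected in 33.3% against 10.0%. Of the receptors and kinases that carry the interleukin 10 signal into a cell, 2 of 10 were higher and 8 lower, with a median of -1.17 that was -1.74 in block 1 and 0.12 in block 3. Il10rb, the receptor chain shared with related cytokines, was detected in 9.52% against 30.0%, a difference of -1.81 that was -2.11 and -2.02 in the blocks.

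Of 14 genes of effector cell movement and cytoskeleton, 4 were higher and 10 lower (71.4%, beside 61.8% of all genes). The size was passed downward by 3 of the 14, and by 3.46% of all genes. Their median of -0.55 (-0.46 and -0.85) was -0.09 after adjustment, near the -0.03 of all genes. S100a4, a calcium-binding protein of migrating effector cells, was detected in 1 of 21 Il10-detected cells (4.76%, 0.12 to 23.8) and 17 of 40 others (42.5%, 27.0 to 59.1), with a difference of -3.66 (-3.71 and -3.27). It is also among the genes named by size below, so the gap between its intervals is no support. Lgals3, the gene of galectin-3, was detected in 14.3% against 45.0% (difference -3.21, blocks -3.88 and -3.01), and Anxa2, a membrane-binding annexin, in 42.9% against 70.0% (difference -2.85, blocks -3.39 and -1.95). Vim, the gene of the intermediate filament vimentin, had the opposite direction at 1.86 (1.64 and 2.52). Of 13 glycolytic genes, 3 were higher and 10 lower (76.9%), with a median of -0.56 (-0.61 and -0.21) that was -0.11 after adjustment. Pkm was at -1.95 (-2.89 and -1.09) and Aldoa at -1.68 (-1.39 and -1.55). Respiratory chain genes were even, with 9 of 17 higher and a median of 0.11 that was -0.53 in block 1 and 1.25 in block 3, and 0.82 after adjustment.

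Across all 2918 genes compared, 1114 were higher and 1804 lower in the Il10-detected cells. The number past the size was 142, of which 41 were higher (1.41% of all genes) and 101 lower (3.46%), so 28.9% of them were higher. That split moved with the number of genes detected: after adjustment for it and for block, 83 were higher and 63 lower (56.8% higher), and within cells of the shared range of genes detected 50.5% were higher, while a pseudocount of 10 TPM left 2 higher and 16 lower (11.1%). The median of all genes moved from -0.23 to -0.03 on adjustment.

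The agreement between blocks was close to even: 1588 of 2918 genes (54.4%) had 1 sign in both. More genes differed by 2 or more between the blocks than between the sets, but over fewer cells. Between block 1 and block 3 among the 40 other cells (15 against 25), 263 of the same genes (9.01%) did so, with a median size of 0.73. Between Il10-detected and other cells (21 against 40) the number was 146 (5.00%), with a median size of 0.62. Among the 21 Il10-detected cells (12 against 9) the blocks gave 602 (20.6%). Smaller groups give larger differences by sampling alone, so these numbers do not show that blocks differed more than sets. This comparison of blocks was added after the data had been seen. Genes that passed the size had to have 1 sign in both blocks, so their agreement in sign is fixed by the choice.

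**Figure D4:**
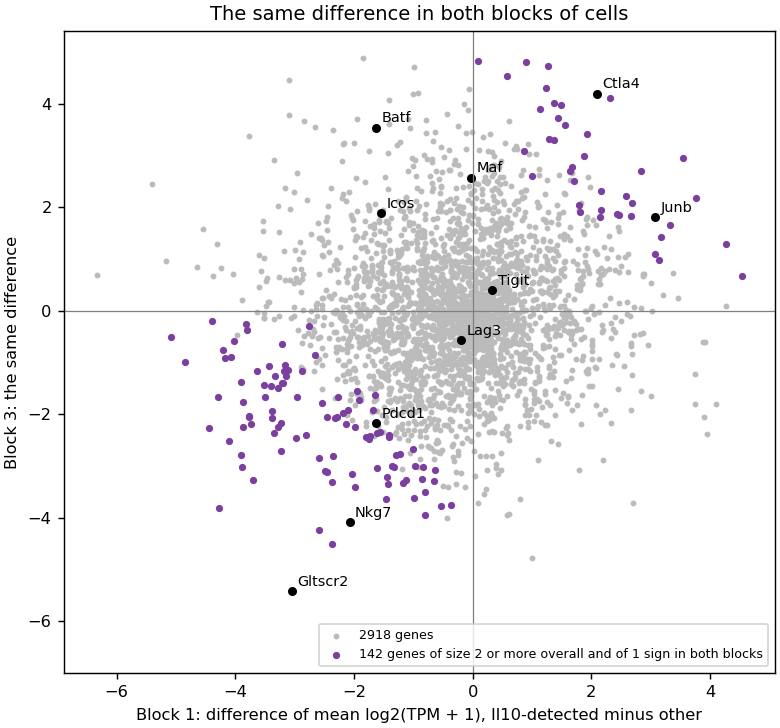
Each grey point is 1 of 2918 genes, with the difference of mean log2(TPM + 1), Il10-detected minus other, within block 1 on the x axis and within block 3 on the y axis, and purple points are the 142 of size 2 or more overall with 1 sign in both. The cloud is round, with 54.4% of genes sharing a sign, and Ctla4 and Junb lie in the upper right while Maf, Batf and Icos differ between the blocks.

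Named by size, the 12 genes highest beside Il10 were not immune genes for the most part. They were the mitochondrial protein gene Chchd10 (3.10), the thymidylate kinase gene Dtymk (3.03), Mien1 (3.03), Pagr1a (2.88), Ctla4 (2.86), the secreted ribonuclease gene Rnase4 (2.81), the mitochondrial channel gene Vdac3 (2.69), the splicing genes Snrpg (2.62) and Lsm3 (2.49), the signal peptidase gene Sec11c (2.58), the lysosomal gene Psap (2.57) and Junb (2.57). Chchd10 (chromosome 10, 75933130 to 75937747) was detected in 52.4% of Il10-detected and 20.0% of other cells, at 6 of 12 against 2 of 15 cells in block 1 and 5 of 9 against 6 of 25 in block 3. Lsm3 was detected in 28.6% against 2.5% and Rnase4 in 38.1% against 7.5%, but Rnase4 shares exons with a neighbouring ribonuclease gene and its counts are uncertain. These genes were chosen for their size from 2918, so their own shares and intervals are no support.

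The 12 lowest were Gltscr2 (-4.09), a nucleolar protein gene, the isocitrate dehydrogenase gene Idh3b (-4.00), S100a4 (-3.66), Bcap31 (-3.52), the GTPase regulator gene Arhgap30 (-3.44), Nkg7 (-3.34), the clathrin light chain gene Clta (-3.28), Tmem59 (-3.22), Rnaset2a (-3.21), Lgals3 (-3.21), Rgs10 (-3.17) and Srp14 (-3.00). Gltscr2 was detected in 33.3% of Il10-detected and 75.0% of other cells and Arhgap30 in 19.0% and 65.0%, but like the higher genes they were chosen for their size, so these shares are no support either. Rnaset2a has a near-identical copy, so its level is uncertain. S100a4, Nkg7 and Lgals3 are the effector genes among the 12.

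**Figure D5:**
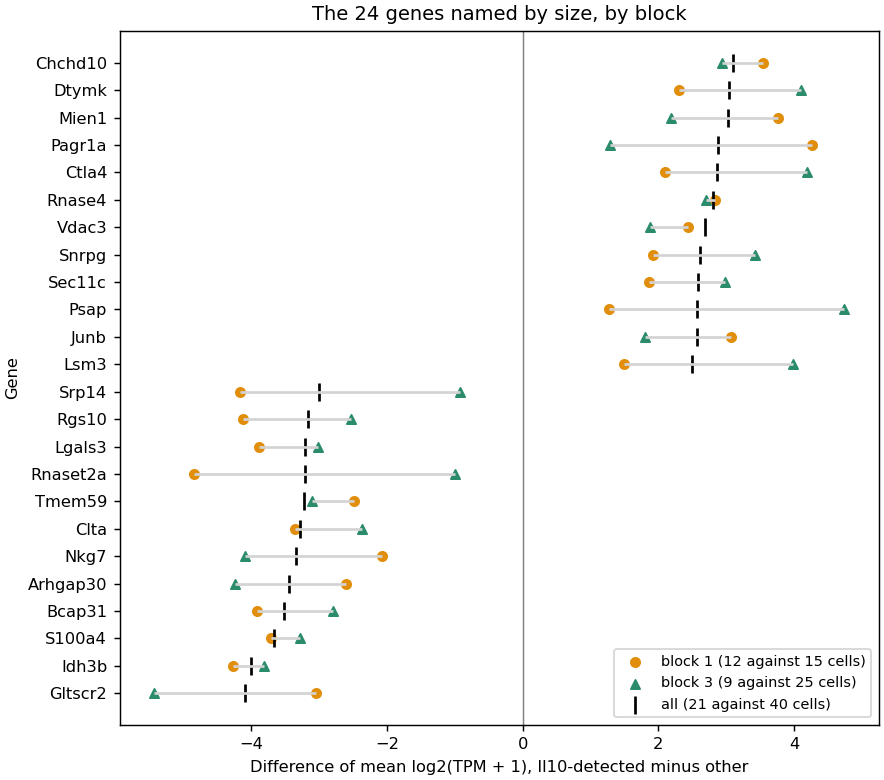
For each of the 24 genes named by size on the y axis, the x axis gives the difference of mean log2(TPM + 1), Il10-detected minus other, in block 1 (circles), in block 3 (triangles) and in all 61 cells (bars). The overall values run from 3.10 for Chchd10 to -4.09 for Gltscr2, and both block values lie on 1 side of 0 for each gene because the naming rule required it.

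The same contrast in classes that share no cells with this one gave other values for most of these genes. Among Ins regulatory T cells, 52 with Il10 against 63 without, 8 of the 12 higher genes were also higher (median 0.44, beside 0.29 for all genes there), and 4 of the 12 lower genes were also lower. The Il10-detected cells there had more genes detected, with medians of 2138.5 against 1936. Among Ins activated cells, 5 against 20, the counts were 4 of 12 and 6 of 12. No such contrast could be made among HIP follicular helper cells, where Il10 was at 0. Ctla4 had the same direction in each, at 1.23 in Ins regulatory and 1.70 in Ins activated cells beside 2.86 here. Nkg7 had the opposite direction, at 4.19 and 1.00 beside -3.34 (4.11 and 0.77 after adjustment for genes detected and block). Pdcd1 was 0.37 and 3.60 beside -2.08, and after adjustment -0.47 and 2.38, so that its direction in the Ins regulatory cells turned. Junb, at 0.37 and -0.11, and S100a4, at 1.33 and -0.28, had no common direction. Il21 was 0.11 and 1.52 (0.10 and 1.38 after adjustment) and Maf 0.32 and 1.99 (0.10 and 1.56). In Ins regulatory cells these unadjusted values lay below or near the 0.29 of all genes, and Il21 was detected in only 2 of 52 and 1 of 63 cells. They are no repeat of the HIP differences there, and the Ins activated values rest on 5 cells with Il10. Of the 9 Tr1-associated receptors, 9 were higher in Ins regulatory cells (median 0.37), but 6 after adjustment, when Pdcd1, Havcr2 and Il27ra were below 0. In Ins activated cells, where the Il10-detected cells numbered only 5, 6 were higher with and without adjustment (median 0.56 without). Whether the values differ between the sorts was not tested.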

How the data were processed

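The authors deposited 1 expression table, on a natural log scale, with 13561 genes and 441 cells; the submitters' processing notes list TopHat, Bowtie, RSEM 1.2.8 and the build mm10 and give no roles. Summed over genes, exp(value) - 1 gave 100000 for each cell, so values were read as ln(TPM/10 + 1) and turned back into TPM summing to 1000000. Classes came from the authors' deposited annotation and matched the labels in 441 of 441 cells. No doublet caller was run on these singly sorted cells, and the highest correlation between any 2 of the 61 cells was 0.47.

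A gene counted as detected at 1 TPM or more. Genes detected in at least 25% of either set were compared by the difference of mean log2(TPM + 1) with a pseudocount of 1 TPM, leaving out Il10. Adjusted differences came from a least-squares fit with genes detected and block. Named by size were the 12 largest differences each way with 1 sign in both blocks and after adjustment, without receptor segments, unnamed models, ribosomal protein or mitochondrial genes. The 4 members of each list with the largest differences and a set of Tr1 genes were named too. Of 468 symbols in 30 lists, 426 were measured. Some list members are counted but not reported here by name. The members, lists and rules were chosen with earlier results of these data known. Coordinates are from GENCODE M21 on GRCm38 (mm10). Python 3.11.15, numpy 2.4.6, pandas 2.3.3, scipy 1.17.1 and matplotlib 3.10.9 were used, and the calculation was tested on simulated data. Alternatives changed the threshold, pseudocount, filter, block weighting, adjustment and cells kept.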

Additional observations from a re-analysis of the deposited data

How the results depend on the processing

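The Tr1 receptor median of -0.08 had no stable sign: it was 0.29 with Il10 at 10 TPM or more, 0.17 with blocks weighted equally, 0.20 adjusted for genes detected and block, 0.27 within the shared range of genes detected, 0.39 without block 1 and -0.26 without block 3. The last pair also changed which receptors passed the filter: over the same 9, the blocks gave -0.19 and -0.41. The median over Il10 regulators ran from -0.60 without block 3 to 1.04 without block 1. The 41 genes past the size on the higher side became 2 with a pseudocount of 10 TPM, 83 adjusted, 107 within the shared range, 295 without block 1 and 139 without block 3, where only 1 block had to agree. The 101 on the lower side became 16, 63, 216 without block 1 and 308 without block 3 under the pseudocount, the adjustment and the single blocks. The median number of genes detected, 315 lower beside Il10 (a difference of -315), was 100 higher without block 1. Of the 108 named genes, 27 changed sign under at least 1 alternative. The 35 past the size had to share a sign in both blocks, so their sign is no measure of stability. Il10 at any value above 0 gave the same 21 and 40 cells. Lag3 with Itga2 and the contrast in HIP follicular helper cells were planned and not run. Unknown depth, failed capture and 1 sample per sort limit every value.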

Other observations

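Several lists have not been described above. The inhibitory receptor list had 5 of 10 genes higher and a median of -0.06 (0.07 and -0.82, and 0.12 after adjustment). Of its genes, 1 passed the size upward and 2 downward, where 1.41% and 3.46% of all genes did. Of 7 housekeeping genes, 4 were higher, with a median of 0.15 (0.56 and 0.08). No gene of the naive and central memory list or of the Th17 list, and none of the B cell, endothelial, endocrine or acinar lists, was detected in 25% of either set. The 2 Th2 genes compared were both lower, with a median of -1.63. Of 4 cell division genes all 4 were lower, with a median of -0.66 that was 0.51 in block 1 and -1.15 in block 3. Among 5 interferon-induced genes, 4 were higher and 1 lower: Gbp7, a guanylate-binding protein with close paralogs, was detected in 66.7% of Il10-detected and 30.0% of other cells (difference 2.43, blocks 1.14 and 3.90), while Ifi27l2a was at -2.56 (-3.87 and -1.77). Of 12 adhesion and homing genes, 3 were higher and 9 lower, with the chemokine receptor gene Cxcr4 detected in 28.6% against 57.5% (difference -1.90, blocks -0.13 and -3.41) and the selectin ligand gene Selplg at -2.10 (-0.64 and -3.08).

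Il18r1 had the same direction in another sort. It was detected in 17.3% of the Ins regulatory T cells with Il10 and 42.9% of those without, a difference of -2.06 (-2.25 after adjustment for genes detected and block), but differed by 0.47 among Ins activated cells, where 5 cells had Il10. The gene was singled out after its values were seen.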
